A study of Oryza sativa with 6 samples.

Results

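The genes described here are the loci of rice chromosome 11 whose MSU identifiers run from LOC_Os11g34500 to LOC_Os11g37500, taken without regard to their level. They number 141 of the 1904 chromosome 11 genes and of the 30020 genes in the authors' deposited table, and the other 1763 genes of chromosome 11 serve as the rest of the chromosome. The stretch was picked out with the oschz1 against wild-type values of this same table in view, so its fold changes, adjusted p-values and counts of called genes are a description and carry no test of the stretch. RNA-seq was done on whole 30-day-old seedlings of Oryza sativa cultivar Nipponbare, 3 samples of the oschz1 mutant and 3 of wild-type, all grown on MS medium in long days (14 h light, 10 h dark, at 30 °C and 28 °C). By the study's methods the mutant was oschz1-1, a single line made by CRISPR/Cas9 that carries a small deletion in OsChz1 and no transgene, and each sample pooled several seedlings. The samples of a genotype are called biological replicates in the study, while the labels do not say that they came from separate cultures, so the spread that p-values measure is that of these samples and may be technical.

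OsChz1 is a histone chaperone with a CHZ domain. Such chaperones hold dimers of H2B with H2A or with the variant H2A.Z and hand them over for assembly into nucleosomes, and H2A.Z is put in place of H2A by the SWR1 remodelling complex. In Arabidopsis, H2A.Z lies near the start of many genes and over the body of genes that respond to the environment. Chromosome 11 of rice is known for arrays of related genes that lie side by side, among them many disease resistance genes of the NBS-LRR class. Near-identical neighbours of that kind are measured only by the reads that tell them apart. The sources used here give the members no names and no functions, so each is called by its locus number, and the locus of OsChz1 itself is not named there, so no value is given for it.

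The table gives for each gene an adjusted p, a log2 fold change and its standard error (SE), and the mean of the normalized counts of the 6 libraries, with positive values taken as higher in oschz1. Values of single libraries stand behind 81 of the 141 members, those with a mean normalized count under 70, whose mean could be split into whole reads of the 6 libraries. For 46 of them the mean alone allowed 1 split, and for the other 35, among them LOC_Os11g36090 and LOC_Os11g37040, the split was the only one found that also gave back the deposited fold change. The libraries are told apart by genotype and depth and not by replicate number, and are called the deepest, the middle and the shallowest library of each genotype. Their size factors, which scale each library to a common depth, ran between 0.596 and 1.49 in oschz1 and between 0.738 and 1.59 in wild-type. Total counts per library are not given in the sources used here. Markers of green tissue were among the most highly expressed genes: RbcS4, CAB1R and LHCB1.3, a Rubisco subunit and light-harvesting proteins matched to loci from general knowledge, had mean normalized counts of 23023, 227551 and 11869, and none of them was called. In bulk tissue, fewer cells of a type and less RNA per cell cannot be told apart.

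Most of the stretch did not differ between oschz1 and wild-type beyond the thresholds of the study, a fold change of at least 1.5 with an adjusted p of at most 0.05 in the authors' DESeq2 Wald test. Of the 141 members, 118 had an adjusted p, while 23 had none, their mean normalized counts being at most 1.47. At those thresholds 14 of the 118 (11.9%) were called, 11 (9.32%) higher in oschz1 and 3 (2.54%) lower. The background over all 25945 tested genes was 7.58% called, with 6.24% higher and 1.34% lower in oschz1. Over the 1419 tested genes in the rest of chromosome 11 it was 10.8%, with 8.03% higher and 2.75% lower. Taken over all levels, the called share of the stretch was thus close to that of its own chromosome. At mean normalized counts of 10 or more it was the smaller one, 9.28% against 11.8%. At 50 or more it was 7.25% against 11.2%. The share over all tested genes was not counted at these cut-offs and is given by level class further below. The middle of the distribution lay at 0 in each set, with a median log2 fold change of 0.01 for the tested members, 0.01 for the rest of chromosome 11 and -0.00 for all tested genes. Members were also expressed at a lower level, with a median mean normalized count of 90.7 for those tested, against 137 in the rest of chromosome 11 and 244 over all tested genes. The SE was small enough for a 1.5-fold change to reach an unadjusted Wald p of 0.05 at 69 of 118 tested members (58.5%). That held for 64.4% of tested genes in the rest of chromosome 11 and 72.3% of all tested genes. A missing call therefore does not show that there was no difference.

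Read along the chromosome, the calls were spread over the stretch rather than gathered in one place. The called members were LOC_Os11g34710, LOC_Os11g35390, LOC_Os11g35400, LOC_Os11g35620, LOC_Os11g36090, LOC_Os11g36100, LOC_Os11g36110, LOC_Os11g36200, LOC_Os11g36830, LOC_Os11g36870, LOC_Os11g36940, LOC_Os11g37040, LOC_Os11g37190 and LOC_Os11g37200. Next to each other in the table stood a pair (LOC_Os11g35390 and LOC_Os11g35400, both higher in oschz1), a group of 3 (LOC_Os11g36090 lower, LOC_Os11g36100 and LOC_Os11g36110 higher) and a second pair (LOC_Os11g37190 higher, LOC_Os11g37200 lower). The other 7 called loci had no called neighbour. The longest break held 40 members, between LOC_Os11g34710 and LOC_Os11g35390. Their log2 fold changes ran between -1.34 and 6.56, and their deposited adjusted p between 8.86e-106 and 0.036.

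**Figure D1:**
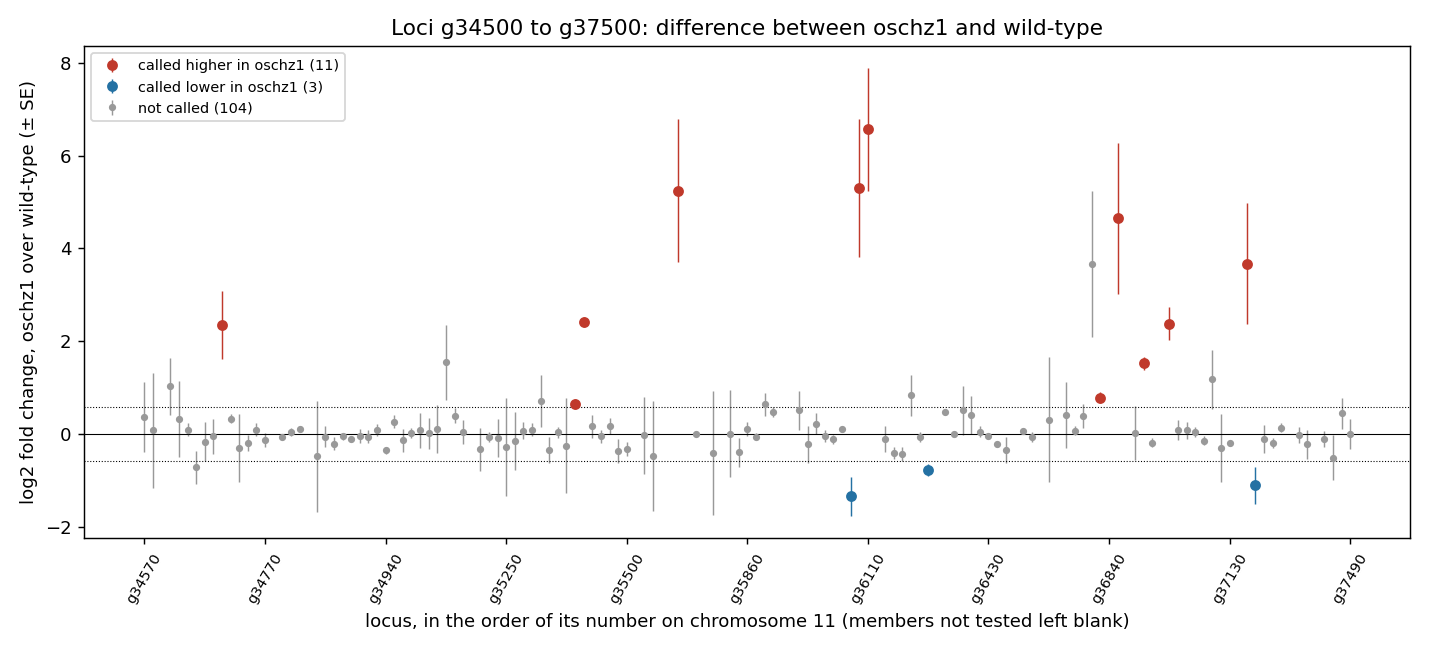
Log2 fold change of oschz1 over wild-type (y axis, ± SE) for the 118 tested loci in the order of their locus numbers (x axis), with dotted lines at 1.5-fold. The 14 called loci, 11 higher and 3 lower in oschz1, stand singly or in groups of 2 or 3 among 104 loci that were not called, most of which lie close to 0.

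In the first part of the stretch, from the first member LOC_Os11g34570 to LOC_Os11g35000, 1 of 28 tested members was called. LOC_Os11g34710 had 31, 10 and 13 reads in the deepest, middle and shallowest oschz1 library, against 4, 3 and 3 reads in the wild-type libraries in the same order. After division by the size factors this came to 17.0 ± 7.49 in oschz1 and 3.41 ± 0.80 in wild-type (SD, n = 3 each). The groups did not overlap, though the middle oschz1 library, at 8.37 normalized reads, was well under the other 2. The log2 fold change was 2.35 ± 0.73 (SE). Its neighbour LOC_Os11g34720 passed the adjusted p but not the fold threshold, at means of 779 in oschz1 and 620 in wild-type. The first member, LOC_Os11g34570, had a mean normalized count of 6.53 and a log2 fold change of 0.37 ± 0.75, and the last row before the stretch, LOC_Os11g34460, had 2778 and -0.00 ± 0.05.

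Between LOC_Os11g35000 and LOC_Os11g36000 lay the pair LOC_Os11g35390 and LOC_Os11g35400 and the single locus LOC_Os11g35620. The pair had almost the same mean normalized count over all libraries, 484 and 483, but differed widely in fold change. The means that the deposited mean and fold change give for LOC_Os11g35400 were 814 in oschz1 and 152 in wild-type, a 5.34-fold difference (95% interval 4.60 to 6.19 from the SE). It had the smallest adjusted p of all members, 8.86e-106 by the DESeq2 Wald test in the authors' deposited table, with a log2 fold change of 2.42 ± 0.11. For LOC_Os11g35390 the means were 591 in oschz1 and 377 in wild-type, a 1.57-fold difference (1.37 to 1.79) that was just past the 1.5-fold threshold, with that threshold inside its interval. Reads of single libraries could not be recovered at this level, so the spread behind these 2 loci is known only through the SE.

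LOC_Os11g35620 was at the other end of the range of levels. It had 7, 3 and 9 reads in the deepest, middle and shallowest oschz1 library, against 0, 0 and 0 in the wild-type libraries. Corrected for depth, the bound was 6.07-fold higher in oschz1, with the wild-type group as a whole set at a floor of 3 reads. That bound leaves out counting error in the oschz1 reads. The exact binomial 95% interval began lower, at 4.48. The shallowest oschz1 library stood apart, at 15.1 normalized reads against 4.70 and 2.51 in the other 2. Without that library the bound was 3.91, and without the deepest wild-type library it was 3.01. The fitted log2 fold change of 5.24 ± 1.54 rests on a wild-type group with no reads and is no estimate of size.

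The part from LOC_Os11g36000 to LOC_Os11g36500 held the group of 3 neighbours and, further on, LOC_Os11g36200. In the group, the first locus was lower and the next 2 were higher in oschz1. LOC_Os11g36090 had 25, 18 and 6 reads in the deepest, middle and shallowest oschz1 library, against 49, 26 and 36 in wild-type. The normalized reads were 14.0 ± 3.48 in oschz1 and 37.1 ± 10.1 in wild-type (SD, n = 3 each), with no overlap between the genotypes and a log2 fold change of -1.34 ± 0.41. It was thus detected in every library of both genotypes.

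LOC_Os11g36100 and LOC_Os11g36110, by contrast, had reads in oschz1 libraries only. The 3 oschz1 libraries, from the deepest to the shallowest, held 14, 7 and 4 reads of LOC_Os11g36100, against 0, 0 and 0 in wild-type. Of LOC_Os11g36110 they held 23, 16 and 15 reads, again against 0, 0 and 0 in wild-type. By the same floor of 3 reads for the wild-type group, the bounds were 7.99-fold higher in oschz1 for LOC_Os11g36100 and 17.3-fold for LOC_Os11g36110. The exact binomial 95% intervals, which take in counting error, began lower, at 6.03 and 13.6. Without the deepest wild-type library the bounds by the floor were 3.96 and 8.55. Normalized reads of LOC_Os11g36110 were 18.0 ± 6.30 in oschz1 (SD, n = 3), the highest level among the members with no wild-type read. Whether the reads of such neighbours come from one transcript, from separate genes or from shared copies was not tested.

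LOC_Os11g36200, well expressed in both genotypes, was lower in oschz1. Its means were 189 in oschz1 and 322 in wild-type, with a log2 fold change of -0.77 ± 0.13. The level in oschz1 was 0.59 of that in wild-type (95% interval 0.49 to 0.71), an interval that includes the threshold of a 1.5-fold decrease. Around it lay several members that passed the adjusted p with smaller differences: LOC_Os11g36150 and LOC_Os11g36160 had log2 fold changes of -0.40 ± 0.13 and -0.43 ± 0.15, LOC_Os11g36340 had 0.47 ± 0.06 and LOC_Os11g36440 had -0.21 ± 0.07.

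From LOC_Os11g36500 to LOC_Os11g37000, 3 of 10 tested members were called, all higher in oschz1, and the median log2 fold change of these 10 was 0.41. This was the highest median among the 6 parts of 500 locus numbers, the other 5 lying between -0.05 and 0.04. The median mean normalized count of these 10 was 36.9, the lowest among the 6 parts. Under a mean normalized count of 10, the median log2 fold change was 0.39 in the rest of chromosome 11 and 0.21 over all tested genes. Whether level bears on the median of this part was not tested. LOC_Os11g36830 had means of 464 in oschz1 and 270 in wild-type, a 1.72-fold difference (95% interval 1.47 to 2.01, which also includes 1.5). LOC_Os11g36940 had means of 447 in oschz1 and 155 in wild-type, a 2.89-fold difference (2.38 to 3.49). Between them, LOC_Os11g36870 was near the limit of detection. It had 6, 6 and 3 reads in the deepest, middle and shallowest oschz1 library, against 0, 0 and 0 in wild-type. The bound by the floor of 3 reads was 4.80-fold higher in oschz1, or 2.37 without the deepest wild-type library. The exact binomial 95% interval began at 3.44. Its normalized reads were even among the mutant libraries, 4.70 ± 0.58 in oschz1 (SD, n = 3).

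LOC_Os11g36810, named after its values were seen, was not called but had a similar pattern. It had 8, 6 and 2 reads in the deepest, middle and shallowest oschz1 library, against 0, 1 and 0 in wild-type. The depth-corrected ratio was 15.3, with an exact binomial 95% interval from 2.38 to 644 that covers counting error only. It rests on 1 wild-type read in the middle library. Without that library no wild-type read was left, and the bound by the floor of 3 reads was 3.78-fold higher in oschz1. Without the deepest wild-type library the ratio was 7.60. The genotypes did not overlap, and the adjusted p of 0.093 by the DESeq2 Wald test missed the threshold.

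The last part, from LOC_Os11g37000 to LOC_Os11g37500, held 3 called members. The oschz1 libraries had 107, 77 and 40 reads of LOC_Os11g37040, from the deepest to the shallowest, against 20, 15 and 6 in wild-type. The normalized reads were 67.8 ± 3.70 in oschz1 and 13.0 ± 5.10 in wild-type (SD, n = 3 each), with a log2 fold change of 2.38 ± 0.36. The locus was detected in every library of both genotypes, and the mutant libraries lay close together. LOC_Os11g37190 had 11, 12 and 4 reads in the deepest, middle and shallowest oschz1 library, against 1, 0 and 1 in wild-type. The depth-corrected ratio was 12.9 (exact binomial 95% interval 3.25 to 112), and it was 19.8 without the shallowest wild-type library, which held 1 of the 2 wild-type reads. The adjacent locus LOC_Os11g37200 went the other way, with 28, 18 and 8 reads in oschz1 libraries against 53, 32 and 23 in wild-type libraries. Its normalized reads were 15.8 ± 2.74 in oschz1 and 34.5 ± 4.06 in wild-type (SD, n = 3 each), with no overlap and a log2 fold change of -1.10 ± 0.40. The stretch ended without a call. Its last member, LOC_Os11g37490, had a log2 fold change of 0.01 ± 0.32 at a mean normalized count of 40.0. The 95% interval from the SE, 0.65 to 1.55-fold, includes a 1.5-fold change in either direction. The next row, LOC_Os11g37510, had a log2 fold change of 0.08 ± 0.13 at 291.

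**Figure D2:**
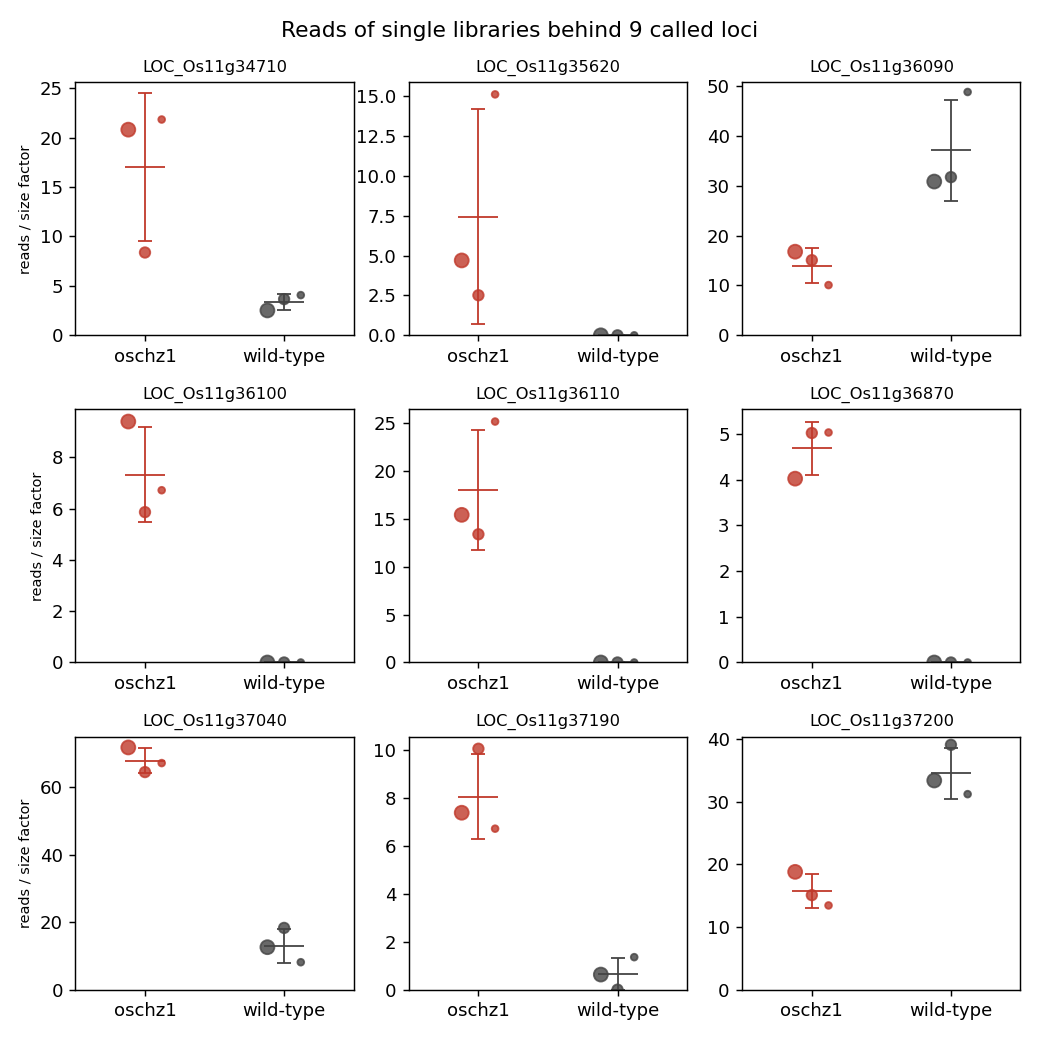
Reads divided by the size factor (y axis) in each oschz1 library (red, left) and each wild-type library (grey, right) for the 9 called loci whose reads could be recovered, with the largest point for the deepest library and the bar and whiskers for the mean ± SD of 3 libraries. The genotypes do not overlap in any of the 9 panels, and 4 loci have no wild-type read. These loci were called from the same libraries, so the separation is a description.

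Reads in all 3 oschz1 libraries with none in wild-type were thus seen at 4 members, LOC_Os11g35620, LOC_Os11g36100, LOC_Os11g36110 and LOC_Os11g36870, and the reverse at 0. Below a mean normalized count of 10, where the reads were split for all genes that allowed it, these 4 came from 44 members (9.09%). In the rest of chromosome 11 it was 15 of 581 genes (2.58%), and over all genes 162 of 7514 (2.16%). The reverse, reads in all wild-type libraries and none in oschz1, was seen at 10 genes in the rest of chromosome 11 (1.72%) and 51 of all genes (0.68%). As the stretch was picked from this contrast, the larger share among its members is a description.

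Across the 81 members with reads per library, all 9 called ones had genotypes that did not overlap, 7 higher and 2 lower in oschz1. The calls come from these same libraries, so the separation lends them no support. Its share among called genes of the whole series was not counted. Of the 72 members that were not called, 63 overlapped and 9 (12.5%) did not, 8 of these higher and 1 lower in oschz1. The like share of other genes was counted only under a mean normalized count of 10, where the genotypes stood apart at 2 of 39 members that were not called (5.13%), at 67 of 568 in the rest of chromosome 11 (11.8%) and at 848 of 7360 of all genes (11.5%). At that level the share among members was the smaller one, with no test made. The 12.5% also takes in members at higher levels, where no like share was counted. Of all tested genes, 4.48% were called under a mean normalized count of 10 and 7.58% over all levels. LOC_Os11g35890, the nearest of the 9 to the adjusted p threshold and named after its values were seen, had 107, 102 and 45 reads in the deepest, middle and shallowest oschz1 library, against 89, 38 and 33 in wild-type. Its log2 fold change was 0.64 ± 0.25, with an adjusted p of 0.058 in the DESeq2 Wald test.

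The called members did not fall evenly over the range of levels. Under a mean normalized count of 10, 5 of 21 tested members (23.8%) were called, all higher in oschz1, against 5.49% in the rest of chromosome 11 and 4.48% of all tested genes. From 10 to 50, 4 of 28 members (14.3%) were called, against 14.2% and 13.4%. From 50 to 200, 0 of 23 members were called by the DESeq2 Wald test, against 19.7% in the rest of chromosome 11 and 14.4% of all tested genes. In that range 3 members had an unadjusted p under 0.05, 1 of them with a fold change of at least 1.5, and no other tool was run. From 200 to 1000, 5 of 34 (14.7%) were called, against 8.66% and 5.61%. At 1000 or more, 0 of 12 were called by the same test, although 4 had an unadjusted p under 0.05, against 3.20% and 2.47%. The classes hold few members, and no test was made of their shares.

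**Figure D3:**
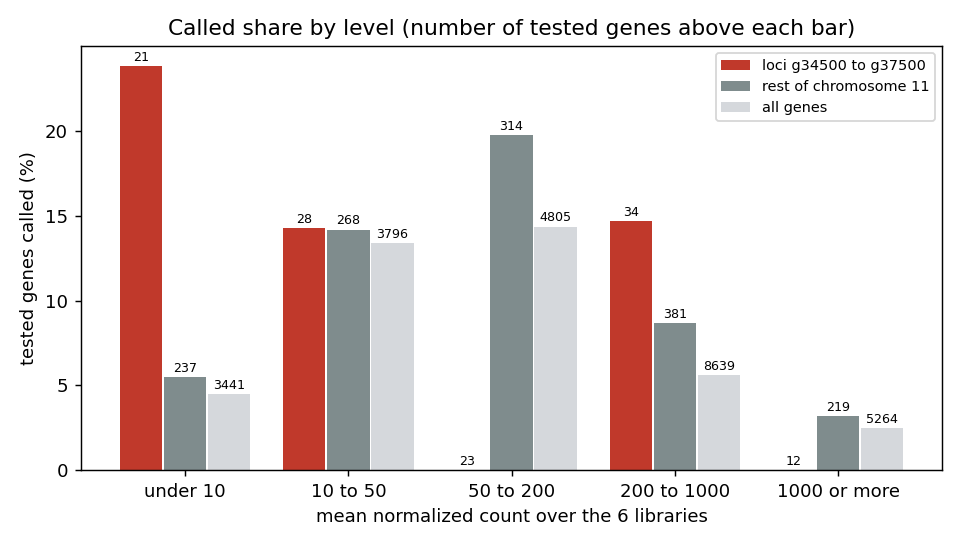
Share of tested genes called (y axis, %) in 5 classes of mean normalized count (x axis) for the loci g34500 to g37500 (red), the rest of chromosome 11 (dark grey) and all genes (light grey), with the number of tested genes above each bar. The loci of the stretch stand highest under 10, at 23.8% of 21, and have no call from 50 to 200 or at 1000 and above.

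None of the 12 members with a mean normalized count of 1000 or more reached 1.5-fold in the DESeq2 Wald test, but 4 of them passed the adjusted p. LOC_Os11g36340 was the highest of these 4, with means of 2193 in oschz1 and 1581 in wild-type and a log2 fold change of 0.47 ± 0.06, and the other 3, LOC_Os11g34940, LOC_Os11g36440 and LOC_Os11g37130, were lower in oschz1. The next loci are highly expressed ones between called loci and were chosen because they missed the adjusted p. LOC_Os11g35710, the highest member, had means of 2994 in oschz1 and 2977 in wild-type, with a log2 fold change of 0.01 ± 0.05. LOC_Os11g36470 had 2395 in oschz1 and 2292 in wild-type, and LOC_Os11g36070 had 2042 in oschz1 and 1901 in wild-type. LOC_Os11g36430 and LOC_Os11g34870, also between called loci, had log2 fold changes of -0.05 ± 0.06 and -0.11 ± 0.06. All 12 members at 1000 or more lay between -0.34 and 0.47 on the log2 scale. At mean normalized counts of 50 or more, 56 members missed the adjusted p threshold, with log2 fold changes between -0.36 and 0.64.

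A further 8 members passed the adjusted p without reaching 1.5-fold, all at mean normalized counts between 181 and 1887. LOC_Os11g34720, LOC_Os11g35930 and LOC_Os11g36340 were higher in oschz1, by 1.26-fold to 1.39-fold. LOC_Os11g34940, LOC_Os11g36150, LOC_Os11g36160, LOC_Os11g36440 and LOC_Os11g37130 were lower, at 0.74 to 0.88 of the wild-type level. With these included, 18.6% of the tested members passed the adjusted p, beside 18.0% of all tested genes.

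**Figure D4:**
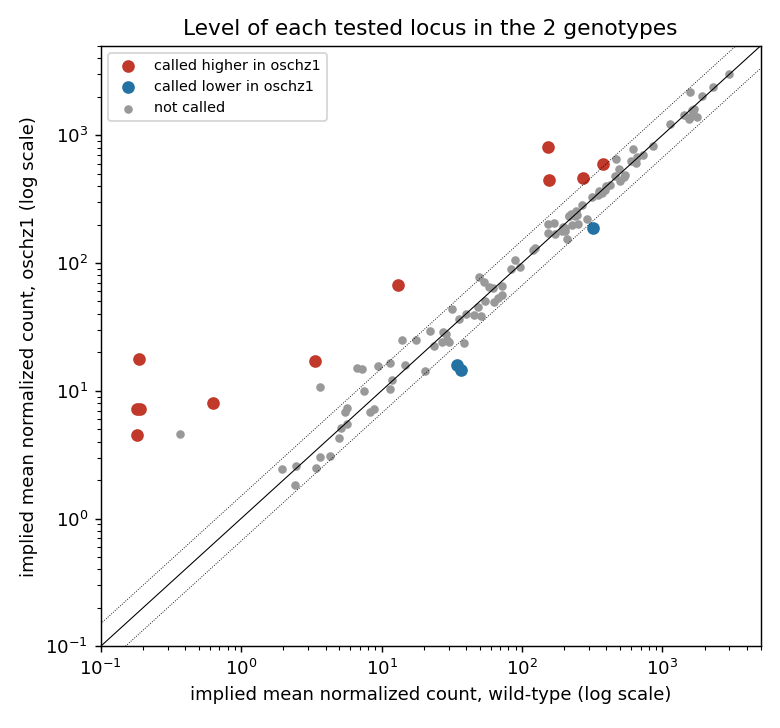
Implied mean normalized count of each of the 118 tested loci in oschz1 (y axis, log scale) and in wild-type (x axis, log scale), with a line of equality and dotted lines at 1.5-fold. Most loci follow the line, while the 4 called loci with no wild-type read stand at the far left, where the wild-type value is the fitted one and not a count.

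Set against other parts of chromosome 11, the stretch was not at the top. When the chromosome was divided into 17 stretches that include this one, 16 of them 3000 locus numbers wide and the first 1500 wide, its called share of 11.9% ranked 5 of 17. Above it were the stretch from 10500 with 30.1%, that from 7500 with 22.2%, that from 16500 with 16.9% and that from 40500 with 16.0%. Its neighbours on either side had 9.47% (from 31500) and 4.72% (the next stretch up). Lower calls were 3 of the 14 here, and 9 of 25 in the stretch from 10500.

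**Figure D5:**
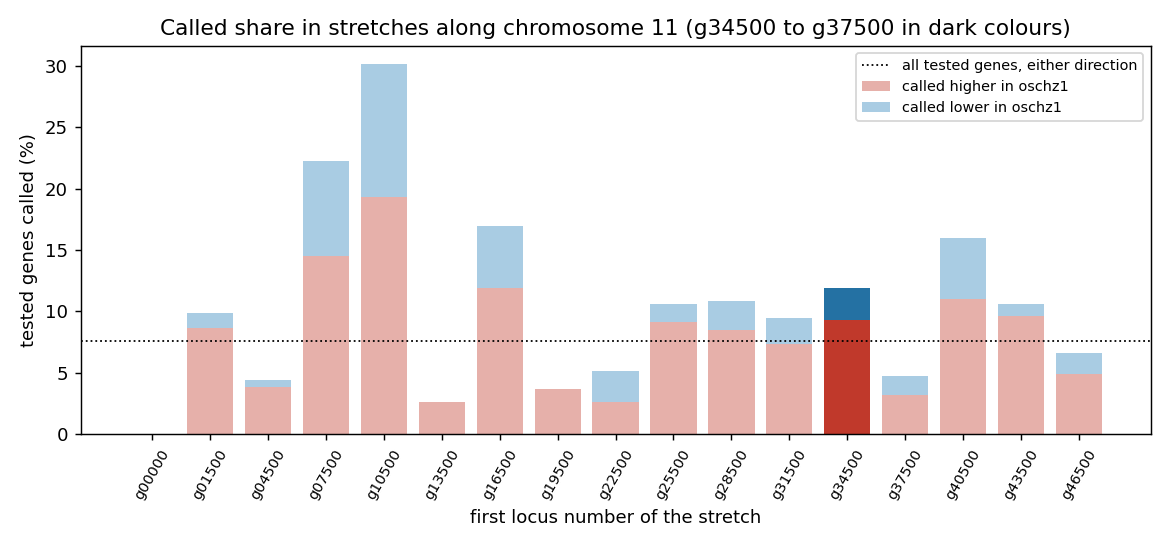
Share of tested genes called (y axis, %) in 17 stretches along chromosome 11 (x axis, first locus number; each 3000 locus numbers wide except the first, of 1500), split into higher (red) and lower (blue) in oschz1, with the share over all tested genes as a dotted line. The stretch from g34500, in dark colours, stands at 11.9%, above the dotted line at 7.58% and below 4 other stretches.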

How the data were processed

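Per the study's methods and the submitters' processing notes, the authors trimmed the reads of poly(A) stranded libraries with cutadapt, aligned them to the Nipponbare genome (MSU7) with HISAT2, kept unique alignments with SAMtools, counted with featureCounts and compared genotypes with DESeq2. The sources used here do not state the strand setting of the counting. Overlapping and antisense genes are therefore uncertain, and near-identical genes are measured only by reads that tell them apart. The deposited table holds the authors' own comparison, on which the choice of loci rests, and its columns are used as deposited: mean normalized counts are a deposited signal, the average of 6 libraries after scaling for depth, the fold change and its SE are deposited log2 values, the statistic is a score from the authors' Wald test, and the p-values are those deposited, raw and adjusted over 25945 genes. The statistic equalled the fold change divided by its SE within 8.23e-07. The header does not name the numerator, and positive values were taken as higher in oschz1 because the table then gives 1619 higher and 348 lower genes, the split the study describes.

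Members and lists were chosen with earlier results of these data known. Named loci are all called members, the highest, the first and last with the rows next to them, and 5 highly expressed loci between called ones that missed the adjusted p. Implied means per genotype follow from the mean and the fold change. Whole reads per library were recovered where the mean is low enough to be written as whole reads times the weight of 1 read in each library. For 46 members the mean alone gave 1 split. For 35 the split also had to give back the deposited fold change when the genotype means were refitted. That use of the fold change was added after the data were seen, as were the leaving out of libraries and the level classes. All 4314 genes with means under 2 were split in 1 way. The genotype of each library was read from genes found in that library alone, whose fold change shows the genotype. The method was tested on simulated data. Bounds use a floor of 3 reads over a group. The floor sets the wild-type side only and leaves out counting error in the oschz1 reads. Exact binomial intervals, at 95%, cover counting error only, since PCR copies are not independent molecules. Work was done in Python 3.11.15 with NumPy 2.4.6, pandas 2.3.3 and SciPy 1.17.1. The reference gene table matched 0 members, and no sequence or coordinate is given. Alternatives changed the fold, adjusted p and level thresholds and the bounds of the stretch.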

Additional observations from a re-analysis of the deposited data

How the results depend on the processing

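No paired analysis was possible because the table gives no values by replicate number. For the same reason a refit without each replicate, a replicate block and edgeR in place of DESeq2 were not run across all genes. Of 41 combinations of a summary and an alternative setting, 35 kept their value within 1.5 times, within the binomial interval or within the median SE, and 6 moved. The members called higher in oschz1 numbered 6 at mean normalized counts of 10 or more and 4 at 50 or more, beside 11. Those called lower numbered 1 at 50 or more and 8 with no fold threshold, beside 3. The called share in the rest of chromosome 11 was 7.33% at 2-fold and 19.2% with no fold threshold, beside 10.8%. The share of members shifted too, to 9.32% at 2-fold and 18.6% with no fold threshold, beside 11.9%. It did not count as moved because the binomial interval of 118 members is wider than that of 1419 genes. At 10 or more, 97 members were tested and 9.28% of them called, against 11.8% in the rest of chromosome 11. At 50 or more, 69 were tested and 7.25% called, against 11.2%. The share over all tested genes was not counted at these cut-offs. Called and tested members both drop out at these settings: under 10, 5 of 21 tested members were called higher in oschz1. At 2-fold, 3 named loci were no longer called (LOC_Os11g35390, LOC_Os11g36200 and LOC_Os11g36830), and at an adjusted p of 0.01 another 3 (LOC_Os11g36870, LOC_Os11g37190 and LOC_Os11g37200). Bounds wider by 500 locus numbers on either side gave 10.4% of members called, and bounds narrower by 500 gave 14.1%. Leaving out each library in turn was an alternative chosen after the data were seen. It kept the direction of the depth-corrected ratio for all 9 called loci with recovered reads. The genotypes did not overlap at these 9 loci, so leaving out 1 library could not reverse the ratio. That outcome was fixed in advance and lends the calls no support. The ratio ran from 4.04 to 6.64 for LOC_Os11g34710, 0.38 to 0.48 for LOC_Os11g36090, 4.70 to 6.11 for LOC_Os11g37040, 9.58 to 19.8 for LOC_Os11g37190 and 0.42 to 0.50 for LOC_Os11g37200.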

Other observations

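The 23 members without an adjusted p had between 2 and 8 reads over all 6 libraries. Together they held 47 reads in oschz1 and 38 in wild-type. Of these members, 8 had no read in wild-type and 3 none in oschz1. LOC_Os11g35660, named after its values were seen, had 0 reads in oschz1 and 6 in wild-type, and the exact binomial 95% interval of the depth-corrected ratio ran from 0 to 0.81 for counting error only. Of the 6 wild-type reads, 5 lay in the middle library, 1 in the shallowest and 0 in the deepest. LOC_Os11g37340, also named after its values were seen, had 2 reads in oschz1 and 6 in wild-type, with an interval from 0.032 to 1.79.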
